A study of Arabidopsis thaliana with 9 samples.

Results

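The comparison described here sets Arabidopsis thaliana roots that lack SCL3 against roots that have it, in plants that make little gibberellin (GA). Its members were the 3 arrays titled ga1-3 scl3-1 and the 3 titled ga1-3, which are 6 of the 9 arrays in the series, chosen by title alone. Every plant carried ga1-3, a mutation of the GA synthesis gene GA1. The first group had no further mutation, and the second also carried scl3-1, a loss-of-function mutation of SCL3. The other 3 arrays were of ga1-3 plants overexpressing SCL3 (SCL3 OE). They entered the model only through the spread between replicates, and their signals are given below as levels with no comparison. Whole roots were taken 7 days after germination from plants kept on MS medium at 22 °C with 16 h of light and 8 h of dark. RNA was hybridised to Affymetrix ATH1 arrays, 1 array per sample. The series describes the replicates as biological. How many seedlings made up a sample is not given in the sources used here.

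GA is a growth hormone that acts by removing DELLA proteins, nuclear repressors of growth. When GA binds the receptor GID1, the complex captures a DELLA and the F-box protein SLY1 marks it for degradation. SCL3 belongs to the same GRAS protein family as the DELLAs but opposes them, and in roots it is known for its activity in the endodermis and ground tissue, where GA controls elongation and the divisions that form extra cortex layers. In a GA-deficient plant DELLAs accumulate, so this background exposes what SCL3 does while its opponents are abundant.

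Values are MAS5 signals, the brightness of a probe set on a linear scale after the authors' scaling. A log2 change is the mean log2 signal of scl3-1 minus that of ga1-3, with the standard error (SE) of the limma model, and a probe set is called at a Benjamini-Hochberg adjusted p under 0.05 over all tested probe sets. Of 22746 probe sets, 14117 were tested, those reaching percentile 40 of the array in at least 3 of the 9. The arrays were alike in scale, since the median signal lay between 190 and 205 on all 6 arrays compared. Arrays of different genotype were nearly as alike as arrays of the same genotype. Across genes, which do not count as replicates, pairs of arrays from different groups correlated at 0.978 to 0.985 (Pearson's r), pairs of ga1-3 arrays at 0.978 to 0.987, and pairs of scl3-1 arrays at 0.984 to 0.99. Markers of root tissues were present: AT1G30870 and the root hair expansin gene EXPA18 lay at percentiles 95.5 and 88.2 of all probe sets, and the cortex marker AT1G09750 at percentile 85.2. These were the brightest measured members of their lists. Few listed markers could be measured: 4 of 26 for root hair and epidermis, 3 of 5 for cortex and 1 of 20 for endodermis. For stele it was 2 of 20, and for root cap and meristem 4 of 18. All but XTH26 (percentile 49.5) and BBM (30.9) lay above the array median. Shoot and photosynthesis genes were also present, with 6 of the 9 that could be measured (of 44 listed) above the array median. Their summed signal was 3683 to 3863 in ga1-3 and 4078 to 4582 in scl3-1, so the groups did not overlap, although limma called 0 of the 7 that were tested. Of the 7, 6 had higher means in scl3-1. For 1 of them all scl3-1 arrays were above all ga1-3 arrays, as for 7.37% of all tested probe sets. The sum also holds untested genes and rests most on its brightest members. The part of these genes in the results below was not tested. The cortex markers also had summed signals without overlap, 2225 to 2432 in ga1-3 and 2450 to 2972 in scl3-1. For the root hair, endodermis, stele and root cap lists the sums overlapped. In whole roots, more cells of a type and more RNA per cell cannot be told apart.

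No probe set with a gene name here measured SCL3 or GA1, so neither mutation could be checked by the signal of its own gene. The largest change in the whole comparison belonged to 261866_at, a probe set that the annotation used here does not name. Its signals were 1171, 1383 and 1128 in ga1-3 and 28.6, 8.48 and 30.6 in scl3-1, against 1241, 1344 and 1177 in SCL3 OE. All 3 scl3-1 arrays were far below the 3 ga1-3 arrays (log2 change -5.97, SE 0.33, adjusted p = 1.18e-07), and the call held in all 19 alternative settings. The scl3-1 signals lie below 105.9, the average signal of the filter, so the size of the fall is uncertain, and with an offset of 50 added before log2 it was -4.15.

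Few transcripts were called between the genotypes. In all, 76 probe sets were called, 52 higher and 24 lower in scl3-1, which is 0.538% of those tested (0.368% higher and 0.17% lower). Only 13 of them changed at least 2-fold, 8 up and 5 down, and 22 changed by less than 1.5-fold. The median size of a called change was 0.72 on the log2 scale, against 0.11 over all tested probe sets, and the smallest was 0.42. For most transcripts the arrays set a narrow bound: the unadjusted 95% interval lay wholly within a 2-fold change for 13958 probe sets, or 98.9%, and its median half-width was 0.27. Called probe sets occurred at every signal level. With the tested probe sets divided by signal into 5 equal bins, 10 were called in the dimmest bin, 17, 18 and 18 in the next bins and 13 in the brightest. The groups did not overlap for any called probe set, as for 14.1% of all probe sets tested (7.37% with scl3-1 above and 6.68% below). Of the 76, 3 reached the filter only with the SCL3 OE arrays. At a looser adjusted p under 0.1 the count was 152, or 1.08%.

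**Figure D1:**
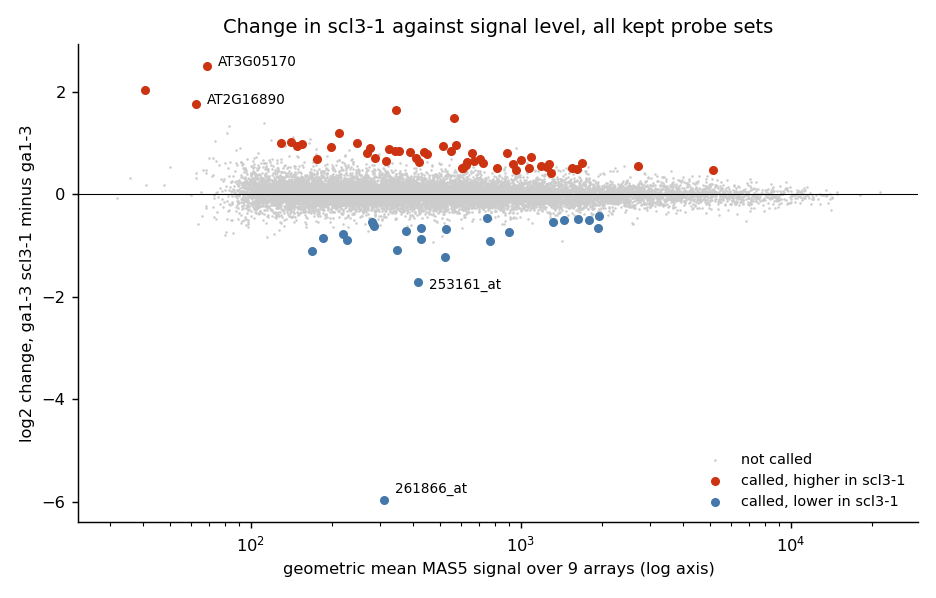
Log2 change between ga1-3 scl3-1 and ga1-3 (vertical axis) against the geometric mean MAS5 signal over all 9 arrays (horizontal axis, log scale) for the 14117 tested probe sets, with the 52 called as higher in red and the 24 called as lower in blue. Most called changes lie within 2-fold of 0, and 261866_at stands alone at -5.97.

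The count rested on few arrays. Leaving out scl3-1 replicate 2 brought it to 3, and leaving out scl3-1 replicate 1 to 23. Removal of ga1-3 replicate 2 or 3 gave 5 and 15, whereas removal of ga1-3 replicate 1 raised it to 148. SCL3 OE replicate 3 mattered too, with 43 calls in its absence. The scl3-1 arrays did not lie equally far from ga1-3. Over the 52 probe sets that rose, the median log2 difference from the ga1-3 mean was 0.71, 0.88 and 0.62 on scl3-1 replicates 1, 2 and 3, and over the 24 that fell it was -0.72, -0.76 and -0.57. Replicate 3 was the scl3-1 array nearest to ga1-3 for 47 of the 76, and ga1-3 replicate 1 was the ga1-3 array nearest to scl3-1 for 44. No called probe set changed direction in any alternative setting.

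**Figure D2:**
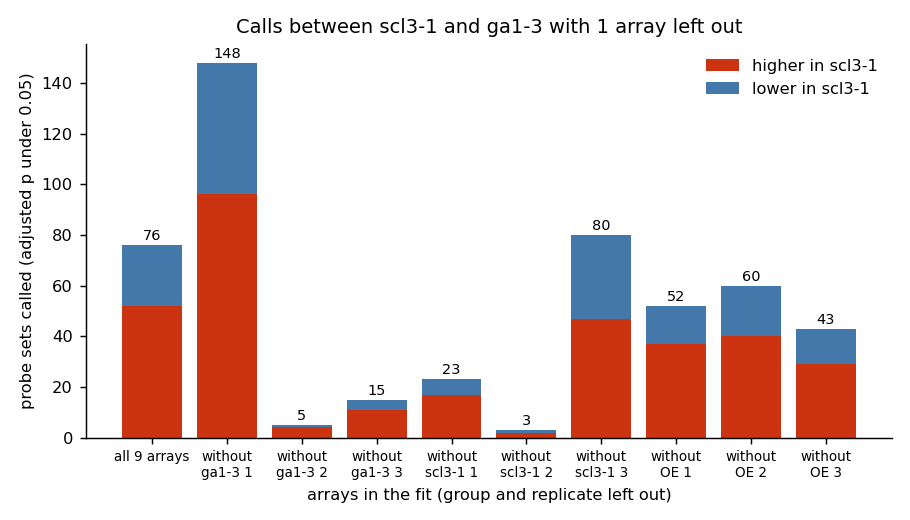
Number of probe sets called between scl3-1 and ga1-3 at an adjusted p under 0.05 (vertical axis) with all 9 arrays and with each array left out in turn (horizontal axis), split into higher (red) and lower (blue) in scl3-1. The count falls from 76 to 3 without scl3-1 replicate 2 and rises to 148 without ga1-3 replicate 1.

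Of the 76 called probe sets, 30 measured 1 named gene, 23 higher and 7 lower, and 45 had no gene name in the annotation used here. One measured several genes. The 30 genes are described by role below, in 5 groups formed after their values were seen.

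Genes of the cell wall and of secreted proteins made up the first group, 8 in number, of which 7 rose. Class III peroxidases are secreted enzymes that stiffen or loosen walls with hydrogen peroxide. AT5G19890 encodes one of them, and its signals were 468, 453 and 479 in ga1-3 and 692, 925 and 884 in scl3-1. Every scl3-1 array was thus above the tight ga1-3 range (1.77-fold, log2 change 0.83, SE 0.12, adjusted p = 0.0112), while the SCL3 OE arrays read 141 to 163. Extensins are hydroxyproline-rich structural proteins that cross-link in the wall. The extensin gene AT4G08410 read 305, 268 and 242 in the parent line and 435, 552 and 530 in scl3-1, again without overlap (0.89, SE 0.16, adjusted p = 0.0215). Its probe set carries the suffix for probes that may bind related transcripts, and SCL3 OE read 124 to 195. AT4G12490 and AT4G12500, near neighbours on chromosome 4, encode hybrid proline-rich proteins with a lipid-transfer-like domain. AT4G12490 read 452, 304 and 388 in ga1-3 and 590, 945 and 682 in scl3-1 (0.94, SE 0.19, adjusted p = 0.0403). AT4G12500 read 226, 126 and 180 in ga1-3 and 332, 369 and 332 in scl3-1 (0.99, SE 0.20, adjusted p = 0.0403). In both genes scl3-1 replicate 2 was the highest of the 6 arrays and ga1-3 replicate 2 the lowest.

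Smaller rises in the same group came from a dirigent protein gene, a pectin-related inhibitor gene and a polysaccharide-modifying family. The dirigent-like gene AT3G13650, whose family steers the coupling of phenolic radicals, went from 974, 954 and 995 to 1308, 1398 and 1356 (0.47, SE 0.09, adjusted p = 0.0254). This was a change of 1.39-fold with little scatter in either group. AT3G17130, of the invertase and pectin methylesterase inhibitor family, had a mean signal of 67.9 ± 18.1 (SD, n = 3) in ga1-3 and 133 ± 16.5 in scl3-1 (1.00, SE 0.20, adjusted p = 0.0386). The ga1-3 mean lies below the average filter signal, so the size of this change is uncertain. TBL45 (AT2G30010), of the trichome birefringence-like family linked to acetylation of wall polysaccharides, rose from 141 ± 11.7 to 227 ± 23.0 (0.68, SE 0.14, adjusted p = 0.0419). The only one of the 8 that fell was the pectin methylesterase gene AT5G51500, with signals of 306, 322 and 339 in ga1-3 and 219, 213 and 212 in scl3-1 (-0.58, SE 0.11, adjusted p = 0.0323). All 8 calls of this group ended without ga1-3 replicate 2 (adjusted p 0.0629 to 0.188) or scl3-1 replicate 2 (0.11 to 0.201). Removal of ga1-3 replicate 3, scl3-1 replicate 1 or scl3-1 replicate 3 ended 7 (0.0811 to 0.156), 6 (0.0563 to 0.117) and 6 (0.0607 to 0.126). Leaving out SCL3 OE replicates 1, 2 and 3 ended 4 (0.0505 to 0.0643), 2 (0.0605 to 0.0643) and 5 (0.0575 to 0.0684).

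**Figure D3:**
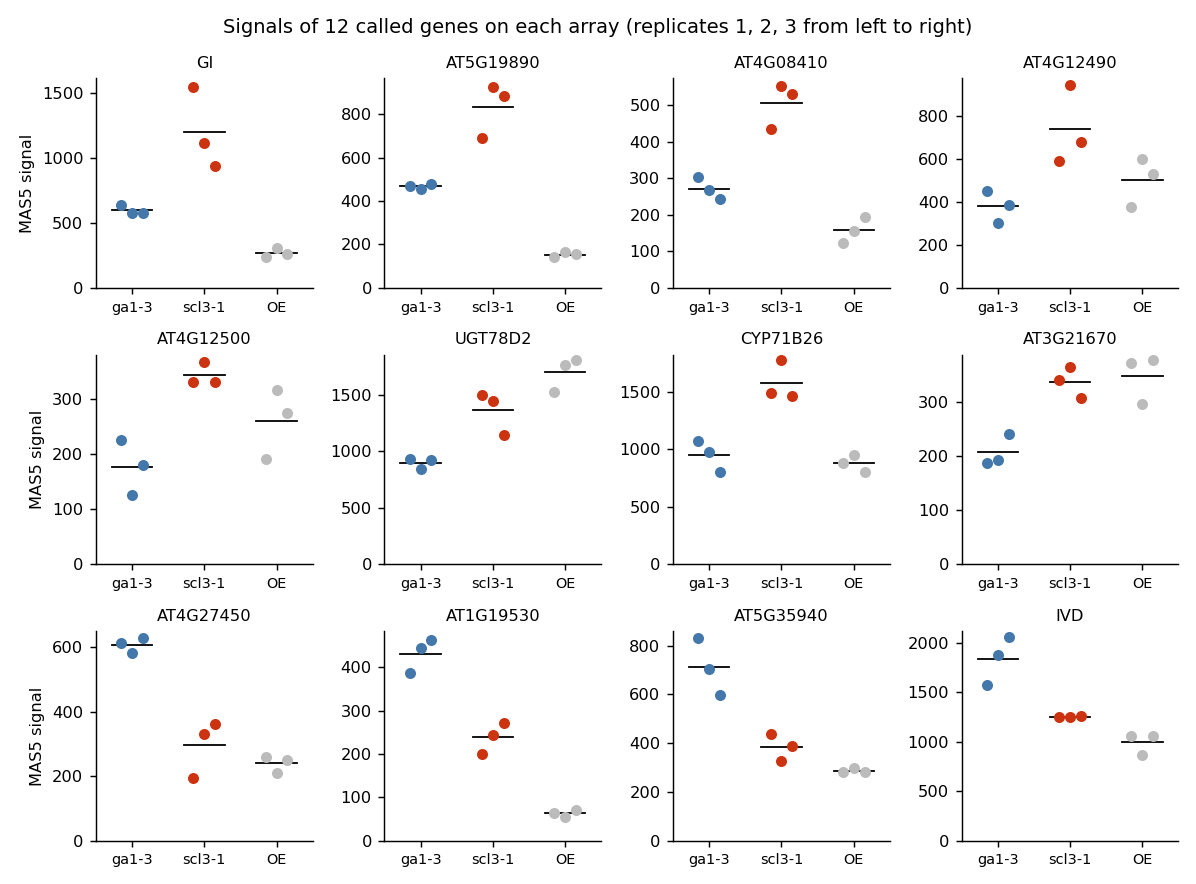
MAS5 signal (vertical axes, linear and starting at 0) of 12 called genes on the 3 arrays of ga1-3 (blue), ga1-3 scl3-1 (red) and SCL3 OE (grey), with replicates 1 to 3 from left to right and a bar at the group mean. In each panel the red and blue points do not overlap, and for GI and AT4G27450 scl3-1 replicate 1 lies farthest from ga1-3.

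Whole families were then read from lists of wall genes. The extensin list was written with earlier results of these data known, so its counts are no independent result about the family. All 7 tested extensin and hydroxyproline-rich genes had higher means in scl3-1, with a median log2 change of 0.49 against 0.01 over all tested probe sets. Only AT4G08410 was called, 14.3% of the list against 0.368% of all tested probe sets called higher. The other 6 ranged from 0.27 to 0.75, and for 5 of them all scl3-1 arrays were above all ga1-3 arrays, as for 7.37% of all tested probe sets. One of these, AT2G43150 (0.27), reached the filter only with the SCL3 OE arrays, and the median of the 6 others was 0.50. HRGP1 and AT1G23720, chosen after their values were seen, were close to the threshold. HRGP1, a hydroxyproline-rich glycoprotein gene, read 1682, 1451 and 1301 in ga1-3 and 2016, 2140 and 2029 in scl3-1 (0.49, SE 0.11, adjusted p = 0.0709). AT1G23720 read 894, 691 and 453 in ga1-3 and 1033, 1086 and 1198 in scl3-1 (0.75, SE 0.18, adjusted p = 0.0857). Extensin genes are repetitive and alike, so their probe sets may share transcripts, and the list's members are not independent. Across ga1-3 replicates 1, 2 and 3 the list's median difference from the ga1-3 mean was 0.19, -0.02 and -0.18, and on the scl3-1 arrays it was 0.33, 0.56 and 0.66.

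All 6 tested genes of the hybrid proline-rich lipid-transfer list had higher means in scl3-1, with a median of 0.47, and 2 were called, 33.3% of the list against 0.368% of all tested probe sets called higher. This list too was written with earlier results known, and the called pair are near neighbours of similar type. The other 4 had a median of 0.31. For 2 of these all scl3-1 arrays were above all ga1-3 arrays, as for 7.37% of all tested probe sets. Besides the called pair on chromosome 4, AT1G62510 had a log2 difference of 0.56 (SE 0.13, adjusted p = 0.0679), with 429 to 547 in ga1-3 and 629 to 787 in scl3-1. Over all alternative settings 5 to 7 and 5 to 6 members of the 2 lists were higher, with medians from 0.40 to 0.62 and from 0.37 to 0.58. The other wall families are given by their own counts, with no test between families. Among 28 class III peroxidases only AT5G19890 was called, 3.57% of the list against 0.368% of all tested probe sets called higher. Their means were higher for 18 and lower for 10, with a median of 0.03. Of 11 expansins, which loosen walls during growth, 0 were called and the median was -0.01. Their smallest p-values belonged to EXPA7 (0.17, SE 0.12) and EXPB1 (-0.12, SE 0.12), and every member's interval lay within a 2-fold change. Of 7 xyloglucan endotransglucosylases 0 were called, with a median of 0.21. XTH16 had a log2 difference of -0.46 (SE 0.16, adjusted p = 0.277) and XTH20 of 0.33 (SE 0.12, adjusted p = 0.299).

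**Figure D4:**
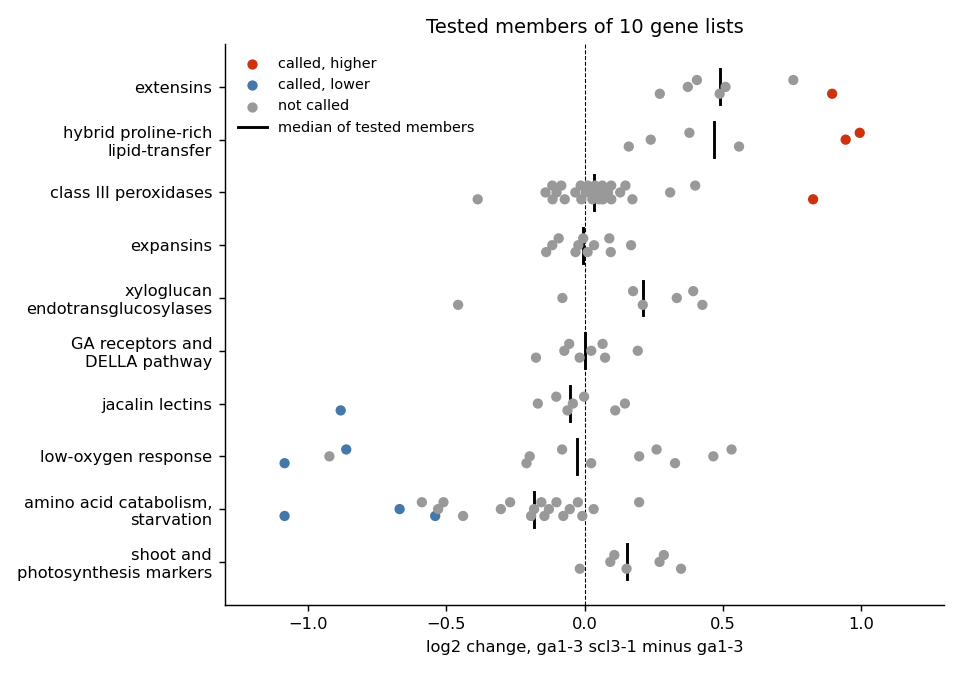
Log2 change between scl3-1 and ga1-3 (horizontal axis) of the tested members of 10 gene lists, 1 point per gene, red or blue where called as higher or lower and grey otherwise, with a black bar at each list's median. The extensin and hybrid proline-rich points all lie right of 0, and the amino acid catabolism and starvation points lie mostly left of it, with a median of -0.18.

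Of the 7 named genes that fell, 5 were placed in a role group of catabolism, low oxygen and lectin genes, formed after their values were seen. AT4G27450 belongs to a small family named for its YGL and LRDR motifs and is induced by carbon starvation and by low oxygen. Its signals were 615, 581 and 628 in ga1-3 and 195, 332 and 363 in scl3-1, so that every scl3-1 array read well below the ga1-3 range (log2 change -1.08, SE 0.18, adjusted p = 0.0205). IVD (AT3G45300) encodes isovaleryl-CoA dehydrogenase, a mitochondrial enzyme of leucine breakdown. It read 1573, 1883 and 2058 in ga1-3 and 1256, 1255 and 1257 in scl3-1 (-0.54, SE 0.11, adjusted p = 0.0419). ASPGB1 (AT3G16150) encodes an asparaginase, which releases ammonium from asparagine, and it read 635, 962 and 745 in ga1-3 and 521, 508 and 428 in scl3-1 (-0.67, SE 0.14, adjusted p = 0.0483). Variation in the latter pair came mostly from the ga1-3 arrays.

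The list of amino acid catabolism and carbon starvation to which these genes belong held 21 tested genes. Of these, 3 fell and 0 rose, 14.3% of the list against 0.17% of all tested probe sets called lower. Means were lower in scl3-1 for 19 of the 21, with a median of -0.18, and for 9 all scl3-1 arrays were below all ga1-3 arrays, where 6.68% of all tested probe sets did so. Since the 3 called genes were known from earlier results when the list was written, the other 18 are given apart: 16 had lower means, 6 without overlap, with a median of -0.15. These 18 were listed with the same earlier results known, so their counts are no independent result about the family. The following members did not pass and were picked after their values were seen. AT3G15450, of the same motif family as AT4G27450, was among the brighter genes of the roots, with 7742, 7880 and 6546 in ga1-3 and 5320, 4827 and 5172 in scl3-1 (-0.53, SE 0.11, adjusted p = 0.0573). MCCA and MCCB encode the subunits of methylcrotonyl-CoA carboxylase, the enzyme that follows IVD in leucine breakdown. MCCA read 989, 1108 and 1228 in ga1-3 and 572, 818 and 846 in scl3-1 (-0.59, SE 0.14, adjusted p = 0.0736), and MCCB had a log2 difference of -0.27 (SE 0.10, adjusted p = 0.293). AT4G33150, which encodes the first enzyme of lysine breakdown, had a log2 difference of -0.44 (SE 0.11, adjusted p = 0.114), and MGL, a methionine gamma-lyase gene, of -0.51 (SE 0.18, adjusted p = 0.286). In each of these genes all 3 scl3-1 arrays were below all 3 ga1-3 arrays. Electron-transfer genes that take electrons from IVD were not called: ETFQO had a log2 difference of -0.18 (SE 0.13), ETFBETA of -0.15 (SE 0.12) and ETFALPHA of -0.05 (SE 0.09). ATG8 genes, which encode the ubiquitin-like coat of autophagosomes, ranged from -0.30 for ATG8E to 0.20 for ATG8G, and 0 of them were called. The count of lower members was 16 to 20 over all alternative settings.

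AT1G19530, a member of the list of genes induced by low oxygen, read 386, 445 and 462 in ga1-3 and 201, 243 and 271 in scl3-1 (-0.86, SE 0.16, adjusted p = 0.0215), and SCL3 OE read 54.5 to 71.2. Of the 12 tested members, AT1G19530 and AT4G27450 fell and 0 rose, 16.7% of the list against 0.17% of all tested probe sets called lower. AT4G27450 also counts in the starvation list above. Of the 12 means, 6 were higher and 6 lower, with a median of -0.03. Further members that did not pass were picked after their values were seen. AT1G33055 read 667, 600 and 639 in ga1-3 and 224, 356 and 470 in scl3-1 (-0.92, SE 0.21, adjusted p = 0.0686). The pyruvate decarboxylase gene PDC2, of ethanol fermentation, read 955, 1046 and 1318 against 1659, 1773 and 1350 (0.53, SE 0.13, adjusted p = 0.0873), and AT4G24110 had a log2 difference of 0.46 (SE 0.11, adjusted p = 0.0873). AT5G35940, a jacalin-like lectin gene, fell from 831, 704 and 598 to 439, 327 and 389 (-0.88, SE 0.14, adjusted p = 0.0137). Jacalin-like proteins bind sugars, and several are abundant in roots. The 7 other tested jacalin genes were not called, ranging from -0.17 to 0.15, and JAL34, the brightest with 8997 to 11411, had a log2 difference of -0.06 (SE 0.11). The 5 called genes that fell in this role group all lost the call without ga1-3 replicate 2 (0.0675 to 0.199) or scl3-1 replicate 2 (0.0833 to 0.155). Removal of ga1-3 replicate 3 ended 4 of them (0.0811 to 0.176), that of scl3-1 replicate 1 ended 3 (0.0838 to 0.102), and that of scl3-1 replicate 3 ended 2 (0.0894 to 0.141). ASPGB1 lost it without any SCL3 OE array (0.0795, 0.0771 and 0.0715), and IVD without SCL3 OE replicate 1 or 3 (0.073 and 0.0715).

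Clock, signalling, transport and lipid genes formed the next group of 7, of which 6 rose. GI (GIGANTEA, AT1G22770), a large protein of the circadian clock that also acts in flowering and light signalling, read 641, 579 and 579 in ga1-3. In scl3-1 it read 1546, 1111 and 936, so the mutant arrays were higher but spread widely (1.95-fold, log2 change 0.97, SE 0.16, adjusted p = 0.0164). SCL3 OE read 238 to 311. Only 3 of 46 listed clock genes were tested. Beside GI these were COR27 (-0.17, SE 0.25, adjusted p = 0.884) and its homologue AT4G33980 (0.07, SE 0.14, adjusted p = 0.921). The central clock genes were not analysed here, and the time of harvest is not given in the sources used here. HYH, a light-signalling transcription factor gene, had a log2 difference of 0.33 (SE 0.18, adjusted p = 0.566).

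AT3G21670, a transporter gene of the nitrate and peptide family (NPF6.4), read 186, 193 and 241 in ga1-3 and 340, 365 and 308 in scl3-1 (0.71, SE 0.14, adjusted p = 0.0327). It was the only gene of the nitrate and ammonium list that could be tested. AT1G73600 encodes a methyltransferase on the route to phosphocholine, the head group of phosphatidylcholine. Its signals of 220, 195 and 144 rose to 336, 350 and 309 (0.85, SE 0.15, adjusted p = 0.0215). The 4 other tested genes of choline and phospholipid synthesis were not called and stayed within -0.01 to 0.08. The protein phosphatase 2C gene AT3G16800 read 480, 386 and 388 in ga1-3 and 901, 794 and 533 in scl3-1 (0.80, SE 0.16, adjusted p = 0.0341). PRN (AT3G59220), a pirin gene whose product binds the G protein alpha subunit, went from 646, 546 and 483 to 901, 935 and 793 (0.66, SE 0.12, adjusted p = 0.0205). AT3G22550 also rose, from a mean of 98.1 ± 18.9 (SD, n = 3) to 187 ± 9.62 (0.95, SE 0.18, adjusted p = 0.0244). AT4G40070, a RING-finger protein gene, was the one that fell, from 363 ± 16.7 to 248 ± 4.31 (-0.55, SE 0.11, adjusted p = 0.0416). All 7 lost the call without ga1-3 replicate 2 (0.0708 to 0.153) or scl3-1 replicate 2 (0.0913 to 0.168). Removal of ga1-3 replicate 3 or of scl3-1 replicate 1 ended 6 each (0.0573 to 0.143 and 0.0712 to 0.117), and that of scl3-1 replicate 3 ended 2 (0.0684 to 0.0841). AT3G21670 also depended on ga1-3 replicate 1 (0.0535). SCL3 OE replicates 1, 2 and 3 ended 3 (0.0524 to 0.0643), 2 (0.0581 to 0.0643) and 3 (0.0535 to 0.0684).

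Specialised metabolism supplied 6 called genes, all of which rose. CYP71B26 (AT3G26290), a cytochrome P450 gene, read 1068, 976 and 803 in ga1-3 and 1486, 1772 and 1462 in scl3-1 (0.73, SE 0.12, adjusted p = 0.0164). The 6 other tested genes of the CYP71A and CYP71B subfamilies were not called and ranged from -0.29 to 0.25. UGT78D2 (AT5G17050) encodes the glucosyltransferase that attaches glucose to the 3 position of flavonols and anthocyanidins. It read 934, 843 and 926 in ga1-3 and 1503, 1447 and 1142 in scl3-1 (0.59, SE 0.11, adjusted p = 0.0296), and SCL3 OE read 1530 to 1806. AT2G16890, of the same enzyme superfamily, rose from 17.1, 21.8 and 22.3 to 94.0, 81.6 and 42.6 (1.77, SE 0.28, adjusted p = 0.0164), but all of these lie below the average filter signal of 105.9, so its size is uncertain. The probe set was kept only through SCL3 OE, which read 154 to 203. With an offset of 50 added before log2 its change was 0.78. AT2G29340, a tropinone reductase-like dehydrogenase gene, rose from 1151 ± 152 (SD, n = 3) to 1642 ± 124 (0.52, SE 0.11, adjusted p = 0.0419). AT5G38020, of the SABATH methyltransferase family, rose from 1003 ± 52.2 to 1344 ± 83.7 (0.42, SE 0.09, adjusted p = 0.0483). AT1G76470, of the cinnamoyl-CoA reductase-like dehydrogenases, rose from 567 ± 33.2 to 886 ± 107 (0.64, SE 0.13, adjusted p = 0.0382).

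Genes of flavonoid synthesis and related glycosylation were gathered into a list after these values were seen. Of the 6 that were tested UGT78D2 was the only one called, 16.7% of the list against 0.368% of all tested probe sets called higher. The list was made with its value known, so this share is no result about the family. Of the 6, 3 (UGT84A1, AT2G22590 and UGT78D1) reached the filter only with the SCL3 OE arrays. AT1G06000, a flavonol rhamnosyltransferase gene, read 1290, 1207 and 940 in ga1-3 and 1885, 1706 and 1393 in scl3-1 (0.54, SE 0.13, adjusted p = 0.0796). Most signals of AT2G22590 lay below the filter, at 57.2, 40.6 and 47.7 in ga1-3 and 153, 79.2 and 82.8 in scl3-1, so the size of its change is uncertain (1.06, SE 0.24, adjusted p = 0.0673). CHIL, a chalcone isomerase-like gene, had a log2 difference of 0.40 (SE 0.17, adjusted p = 0.412). The wider UDP-glycosyltransferase family, also listed afterwards, held 34 tested genes, 5 of them kept only with SCL3 OE. Over the 34, 2 were called, 5.88% against 0.368% of all tested probe sets called higher. Of the 29 kept without SCL3 OE, 1 was called, with 16 means higher, 13 lower and a median of 0.03. Without ga1-3 replicate 2 or scl3-1 replicate 2 all 6 called genes of specialised metabolism lost the call (0.0629 to 0.185 and 0.128 to 0.201). Removal of ga1-3 replicate 1 ended 2 calls (0.0552 to 0.0647), that of ga1-3 replicate 3 ended 4 (0.0573 to 0.156), that of scl3-1 replicate 1 ended 5 (0.066 to 0.117) and that of scl3-1 replicate 3 ended 2 (0.0672 to 0.15). SCL3 OE replicates 1, 2 and 3 ended 3 (0.0649 to 0.1), 2 (0.0715 to 0.0832) and 3 (0.0535 to 0.0909).

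The last 4 named genes, all higher in scl3-1, shared no role. AT3G05170, a phosphoglycerate mutase-like gene, had the largest rise among named genes, with signals of 17.4, 20.7 and 10.8 in ga1-3 and 90.4, 98.0 and 80.2 in scl3-1 (2.51, SE 0.24, adjusted p = 0.000203). The groups were well apart, but all 6 arrays read below the average filter signal, and the probe set was kept through SCL3 OE, which read 222 to 243. Its change was 1.07 with an offset of 50, and it kept the call in all 18 alternative settings that could be run on it. AT3G56290 read 92.1, 66.5 and 52.4 in ga1-3 and 187, 182 and 113 in scl3-1 (1.20, SE 0.22, adjusted p = 0.0226). Its ga1-3 signals also lie below the filter, so the size is uncertain, and it was 0.80 with an offset of 50. AT5G08050, which encodes a thylakoid membrane protein, rose from 216 ± 36.1 (SD, n = 3) to 351 ± 38.9 (0.71, SE 0.14, adjusted p = 0.0382). The summed signal of shoot and photosynthesis genes given above was also higher, but 0 of the 7 tested were called. The mean of AT5G17760, an AAA-type ATPase gene, was 769 ± 82.7 in ga1-3 and 1085 ± 36.2 in scl3-1 (0.50, SE 0.10, adjusted p = 0.0375). AT3G56290, AT5G08050 and AT5G17760 lost the call without ga1-3 replicate 2 (0.0708 to 0.144), ga1-3 replicate 3 (0.0921 to 0.153), scl3-1 replicate 1 (0.0715 to 0.0972) or scl3-1 replicate 2 (0.139 to 0.18). AT5G17760 also lost it without ga1-3 replicate 1 (0.0552), scl3-1 replicate 3 (0.101) or any SCL3 OE array (0.0629 to 0.0684), as did AT5G08050 without SCL3 OE replicate 1 or 3 (0.0699 and 0.0535).

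**Figure D5:**
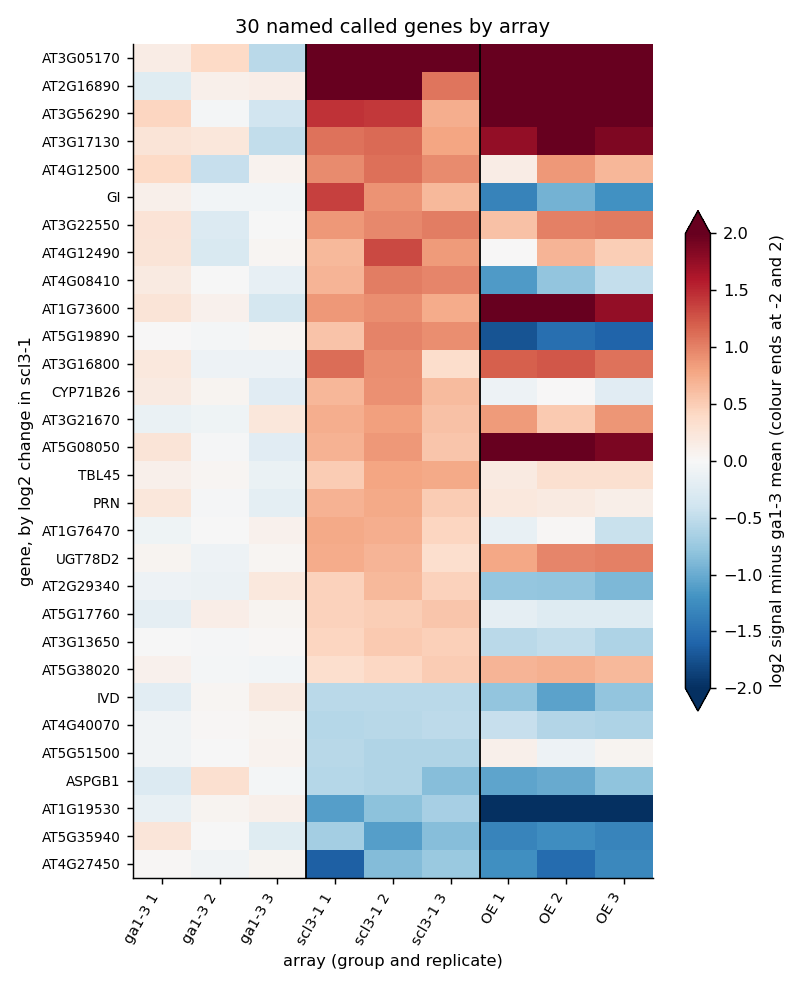
Log2 signal of the 30 named called genes minus their ga1-3 mean (colour, red higher and blue lower, ending at -2 and 2) on each of the 9 arrays (horizontal axis), with genes in order of their change in scl3-1 (vertical axis). The first 23 genes are higher and the last 7 lower on every scl3-1 array, and the SCL3 OE arrays are shown as levels only.

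Called probe sets without a gene name also showed large changes. 263345_s_at, whose suffix marks probes shared by several transcripts, read 197, 129 and 91.2 in ga1-3 and 491, 487 and 299 in scl3-1 (1.65, SE 0.23, adjusted p = 0.00951). 258321_at read 295, 183 and 158 in ga1-3 and 904, 625 and 327 in scl3-1 (1.48, SE 0.28, adjusted p = 0.0296). Among those that fell, 253161_at followed 261866_at, with 786, 830 and 1034 in ga1-3 and 146, 287 and 464 in scl3-1 (-1.71, SE 0.32, adjusted p = 0.0257). In 258321_at and 253161_at scl3-1 replicate 3 was the mutant array nearest to ga1-3. The call of 263345_s_at ended without ga1-3 replicate 2 (0.0629) or scl3-1 replicate 2 (0.0833). Those of 258321_at and 253161_at ended without ga1-3 replicate 2 (0.144 and 0.112), ga1-3 replicate 3 (0.141 and 0.132), scl3-1 replicate 1 (0.103 and 0.0715) or scl3-1 replicate 2 (0.149 and 0.128), and that of 258321_at also without SCL3 OE replicate 3 (0.0535).

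The tested genes of GA perception and the DELLA pathway did not differ detectably. The list entry for the DELLA gene RGA could not be matched to a single gene. Of 20 listed genes of GA perception and the DELLA pathway 8 were tested and 0 called, with 4 means higher, 4 lower and a median of 0.00. For every one the 95% interval lay within a 2-fold change. The receptor gene GID1A read 967, 1011 and 908 in ga1-3 and 862, 1079 and 1092 in scl3-1. The interval of its log2 change was -0.17 to 0.30. The sister gene GID1B read 1007, 1207 and 1226 against 1298, 1255 and 1066, with an interval of -0.16 to 0.30. The largest change was that of SEC, an O-GlcNAc transferase gene that acts on DELLAs (0.19, SE 0.16, adjusted p = 0.74), followed by GID1C (-0.18, SE 0.17). SLY1, the F-box gene, had a log2 difference of 0.02 with the narrow interval of -0.16 to 0.21, and SPY, an O-fucosyltransferase gene of DELLA modification, of -0.06 (SE 0.13). XERICO, a RING-H2 gene activated by DELLAs, read 1354, 1158 and 1161 against 1012, 1267 and 1366 (-0.02, SE 0.11). None of the 26 listed GA metabolism genes was on a named probe set.

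Ground tissue, where SCL3 acts, was sparsely covered. Its tested regulators were JKD (0.02, SE 0.18), SEU (-0.04, SE 0.13) and the GRAS gene AT5G41920 (-0.30, SE 0.17, adjusted p = 0.584), none of them called. The 3 tested cortex markers had higher means in scl3-1, with a median of 0.19. AT1G09750 read 1318, 1372 and 1460 in ga1-3 and 1492, 1838 and 1661 in scl3-1, without overlap but with an adjusted p of 0.312 (0.26, SE 0.10). The endodermal receptor kinase gene GSO1 had a log2 difference of 0.25 (SE 0.15, adjusted p = 0.587). No gene of the root hair, stele or root cap and meristem lists was called. Of the first, EXPA7 and EXPA18 had a log2 difference of 0.17 (SE 0.12) and 0.09 (SE 0.09). PHV and LHW of the stele had a log2 difference of -0.13 and 0.07, and AUR1, SIM and AUR2 of the root cap and meristem list of -0.12, -0.09 and -0.03.

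In the auxin, ethylene and cytokinin, iron deficiency, and touch and wound lists few genes were tested, and limma called 0 of them. In the auxin list the GH3-type gene WES1 had a log2 difference of -0.28 and GH3.3 of 0.26. RTE1 and EIN3 of ethylene signalling had a log2 difference of -0.19 and -0.06. Of 5 tested genes of the iron deficiency response, AT3G12900 and BHLH101 reached the filter only with SCL3 OE. AT3G13610, a coumarin synthesis gene, had a log2 difference of 0.35 (SE 0.13, adjusted p = 0.30) and PYE of 0.10. No listed gene of the phosphate starvation response could be tested. The 4 touch and wound genes had higher means in scl3-1, led by CML37 (0.57, SE 0.25, adjusted p = 0.44) and WRKY53 (0.45, SE 0.22, adjusted p = 0.473), and their arrays overlapped.

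The 30 named called genes were counted by chromosome, and the 45 called probe sets without a gene name could not be placed. Chromosome 3 held 11 of the 30 (36.7%), 9 higher and 2 lower, while it carried 20.3% of the tested probe sets with 1 gene. The share called was 0.709% on chromosome 3, 0.203% on chromosome 1, 0.267% on chromosome 2, 0.446% on chromosome 4 and 0.38% on chromosome 5. No test was made of this difference. None of the 46 probe sets of plastid genes was called, which carries little weight where 0.538% of all tested probe sets were called. In gene order AT4G12490 and AT4G12500 were the closest pair, and the next closest called genes, AT3G16800 and AT3G17130, were 33 protein-coding genes apart.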

How the data were processed

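Each deposited value is the intensity (signal) of 1 probe set, not log-transformed, which the authors computed by MAS5 in Affymetrix Expression Console 1.1, per the submitters' processing notes. RNA (300 ng per sample) was amplified with a 3' IVT kit, per the labels' protocols. The 2% trimmed mean of each array lay between 496 and 497, so the arrays had been scaled to a common level. No detection calls were used here. The deposited signals were taken to log2. Group means of the 9 arrays were estimated together using limma 3.58.1 under R 4.3.3 (eBayes with trend, 15.4 total degrees of freedom, two-sided, Benjamini-Hochberg). Calling was tested on simulated data. Of 13513 probe sets with 1 gene, 13436 matched the TAIR10.1 gene table, used for names and gene order. In lists the brightest probe set stood for its gene. After the first results, 2 list entries whose symbol belonged to another gene (for chalcone isomerase and a phosphate starvation gene) were replaced by locus. No sequence is shown. The text names every called probe set with 1 gene, the called members of each list or its leading ones, and the 2 largest rises and falls without a name among those whose brighter group mean exceeded the mean array median of 192.8. Other list members are said to be chosen after their values were seen. Of 27 lists, 13 of 155 tested genes were called, where 0.538% of all tested probe sets were. Because earlier results were known when the lists were written, this count is no result about the families. A further 5 lists were added after seeing the data. Members, lists and tests were chosen with earlier results of these data known. Precision is limited by having 3 arrays per group.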

Additional observations from a re-analysis of the deposited data

How the results depend on the processing

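Against 76 called probe sets, 36 were called with no filter on dim probe sets, 20 by eBayes without trend, 30 with only the 6 arrays compared, 123 with array weights, 152 at an adjusted p under 0.1 and 13 with a 2-fold minimum. The count stayed within 1.5 times under the 60th percentile filter, both other scalings, an offset of 50 and robust eBayes. With median-centred arrays 59.2% of calls were higher in scl3-1, against 68.4%. Leaving out 1 array gave 3 to 148 calls. The fits with 6 arrays or with 1 array left out used the probe sets kept over all 9 arrays. Of the 30 named genes, 9, 8 and 10 kept the call with no filter, without trend and with the 6 arrays, and 1 to 26 with 1 array left out. In at least 15 settings AT3G05170, AT5G19890, AT5G35940, AT2G16890, AT4G27450, CYP71B26 and GI kept it, and 0 of the 30 changed sign. Of these, AT3G05170 and AT2G16890 passed the main filter only through SCL3 OE, and both kept the call with no filter. Same-numbered replicates did not deviate together (correlations of -0.06, 0.13 and -0.19), and not every array correlated best with its own number, so the numbers were not taken as pairs. With a replicate block 73 probe sets and 21 of the 30 genes were called. With 3 arrays per group the median interval reached 0.27 either side on the log2 scale, so many smaller changes could not be detected. Counts of members by list were added after seeing the data. The cause of the other shifts was not tested.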
